A study of Mus musculus with 2 samples.

Results

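The regions described here are 1946 windows of 500 bp, inside protein-coding genes but away from gene starts, where chromatin of mouse fibroblasts gave many tags with an anti-FLAG antibody and few with control IgG. They were chosen by their counts: 12 or more anti-FLAG tags and 3 or fewer IgG tags, with the window centre over 1 kb from every annotated gene transcription start site (TSS) and inside a protein-coding gene body of the GENCODE M1 annotation on build NCBIM37. Each tag, a mapped 36-bp read, was placed at its 5′ end moved 72 bp downstream, near the middle of the fragment it came from. Of 1835438 autosomal windows with such a position, 0.106% met the limits on tags. In all, 5460 of 4944676 autosomal windows met them, of which 1427 lay within 1 kb of a gene TSS and 2087 were distal and outside protein-coding genes.

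The study asked where on the genome cyclin D1 is recovered. Its cells were 3T3 embryonic fibroblasts, continuously growing mouse cells, in which both copies of Ccnd1, the gene for cyclin D1, are knocked out and FLAG-tagged cyclin D1 is stably expressed from an MSCV retroviral vector, without treatment. Chromatin fixed in 1% formaldehyde for 15 min gave 2 libraries, 1 precipitated with the M2 monoclonal that recognises FLAG and 1 with non-specific mouse IgG. Both libraries came from cells that carry the knockout and the transgene, so neither shows what anti-FLAG recovers from cells without the tag, and expression is driven by the vector rather than by the Ccnd1 promoter.

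Cyclin D1 binds and activates CDK4 and CDK6 in the G1 phase of the cell cycle. It has no DNA-binding domain of its own and has been found on chromatin together with transcription factors. Introns and intergenic DNA hold most enhancers, short stretches of open chromatin where transcription factors bind. AP-1, a dimer of Fos and Jun proteins, and TEAD proteins, which carry the co-activators YAP and TAZ to DNA, are prominent at enhancers of fibroblasts. CTCF is a zinc finger protein that marks insulators and the anchors of chromatin loops.

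The windows with the most anti-FLAG tags show what such a site looks like as DNA. The first 4 sequences are the 300 bp around the middle of the anti-FLAG tags of the strongest intronic windows, and capitals mark AP-1 (TGANTCA) and TEAD (GGAATG, or CATTCC on the other strand) matches. All sequences are the plus strand of NCBIM37, 5′ to 3′. They lie at chr11:57533159-57533458 in intron 1 of Galnt10, chr11:87123150-87123449 in intron 1 of Ppm1e, chr1:59637168-59637467 in intron 11 of Gm973 and chr10:87343066-87343365 in intron 2 of Igf1.
Galnt10: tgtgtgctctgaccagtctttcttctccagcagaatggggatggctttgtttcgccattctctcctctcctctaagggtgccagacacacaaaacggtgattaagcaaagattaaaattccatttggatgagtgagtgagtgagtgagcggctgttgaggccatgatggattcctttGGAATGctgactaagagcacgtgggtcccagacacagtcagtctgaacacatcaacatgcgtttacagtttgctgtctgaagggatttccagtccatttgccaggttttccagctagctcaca
Ppm1e: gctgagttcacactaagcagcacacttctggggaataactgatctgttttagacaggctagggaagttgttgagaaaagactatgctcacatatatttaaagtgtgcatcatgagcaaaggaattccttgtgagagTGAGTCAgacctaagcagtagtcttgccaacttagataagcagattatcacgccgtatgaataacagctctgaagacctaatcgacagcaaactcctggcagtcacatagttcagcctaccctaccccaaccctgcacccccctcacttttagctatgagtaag
Gm973: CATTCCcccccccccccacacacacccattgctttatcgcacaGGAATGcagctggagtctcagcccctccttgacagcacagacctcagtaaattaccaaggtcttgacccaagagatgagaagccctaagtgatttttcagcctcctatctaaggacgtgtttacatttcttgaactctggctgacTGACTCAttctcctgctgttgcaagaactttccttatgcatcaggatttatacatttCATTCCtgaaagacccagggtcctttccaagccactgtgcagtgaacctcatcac
Igf1: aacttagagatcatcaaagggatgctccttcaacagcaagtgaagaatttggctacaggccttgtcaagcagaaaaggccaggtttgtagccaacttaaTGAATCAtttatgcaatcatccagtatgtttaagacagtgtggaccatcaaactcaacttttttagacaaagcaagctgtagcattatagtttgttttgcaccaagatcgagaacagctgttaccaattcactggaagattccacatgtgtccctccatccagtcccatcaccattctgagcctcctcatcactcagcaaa

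Further examples show AP-1, the most shifted motif. The next windows by anti-FLAG tags with an AP-1 match, again 300 bp with the same capitals, lie at chr13:14589183-14589482 in intron 1 of Hecw1, chr10:40092147-40092446 in intron 1 of Cdk19 and chr7:141479480-141479779 in intron 5 of D7Ertd443e.
Hecw1: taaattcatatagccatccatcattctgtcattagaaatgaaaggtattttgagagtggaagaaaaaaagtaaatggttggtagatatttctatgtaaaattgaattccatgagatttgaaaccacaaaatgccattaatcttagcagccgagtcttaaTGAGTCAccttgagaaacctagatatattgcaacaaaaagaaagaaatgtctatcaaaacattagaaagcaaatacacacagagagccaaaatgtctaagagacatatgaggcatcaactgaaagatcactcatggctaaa
Cdk19: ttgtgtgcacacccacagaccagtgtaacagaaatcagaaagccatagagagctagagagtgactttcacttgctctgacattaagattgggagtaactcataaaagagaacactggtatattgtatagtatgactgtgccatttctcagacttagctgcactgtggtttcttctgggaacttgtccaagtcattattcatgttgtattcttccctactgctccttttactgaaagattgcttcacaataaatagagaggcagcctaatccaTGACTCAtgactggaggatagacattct
D7Ertd443e: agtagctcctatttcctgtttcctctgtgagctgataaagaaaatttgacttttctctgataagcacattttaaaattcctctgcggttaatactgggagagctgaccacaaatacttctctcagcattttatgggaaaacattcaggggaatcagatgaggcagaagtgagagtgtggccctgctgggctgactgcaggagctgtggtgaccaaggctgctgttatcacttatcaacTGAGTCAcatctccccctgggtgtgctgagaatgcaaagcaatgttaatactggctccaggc

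The CTCF core was the motif of largest ratio. The following 120-bp stretches, chosen after their values were seen, have a CTCF core in capitals and lie at chr12:30592042-30592161 in intron 21 of Myt1l, chr19:34318677-34318796 in intron 7 of Acta2 and chr15:76029178-76029297 in intron 1 of Plec.
Myt1l: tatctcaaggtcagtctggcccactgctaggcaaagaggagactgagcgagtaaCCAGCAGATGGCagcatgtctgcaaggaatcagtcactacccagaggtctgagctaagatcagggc
Acta2: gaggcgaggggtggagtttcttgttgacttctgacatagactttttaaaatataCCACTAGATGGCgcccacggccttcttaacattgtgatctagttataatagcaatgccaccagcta
Plec: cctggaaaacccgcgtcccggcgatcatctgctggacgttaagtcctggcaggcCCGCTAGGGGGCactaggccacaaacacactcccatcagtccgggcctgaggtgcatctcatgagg

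Depth was alike, at 9259840 anti-FLAG and 9312346 IgG tags, with 8920625 and 8924859 on autosomes, or 3.61 tags per kb in each. In both libraries introns 1 to 3 of Ccnd1 held 0 tags, where 17.9 would lie at the autosomal mean, and exons 1 to 3 held 11 anti-FLAG and 6 IgG tags. The introns thus fit the genotype label, while exon tags of the locus and of the vector cannot be told apart. RNA was not measured, so the fibroblast label could not be checked against marker genes. Each antibody had a single library, so nothing was replicated and every value compares these 2 libraries only. All intervals are 95% exact intervals and cover counting error only.

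Most of the chosen windows sat just above the limit. Their median was 13 anti-FLAG tags, with 1067 at 12 or 13, 244 at 18 or more, 24 at 25 or more and a highest value of 42. Just inside the limit, 656 windows had 12 anti-FLAG tags, and just outside it 993 had 11 with 3 or fewer IgG tags. A further 720 windows had 12 or more anti-FLAG tags but 4 IgG tags. On the IgG side 159 members had 0 tags, 382 had 1, 671 had 2 and 734 had 3, against means of 2.11 anti-FLAG and 2.06 IgG tags over all intragenic distal windows. With the libraries exchanged, 163 windows, or 0.00888%, had 12 or more IgG and 3 or fewer anti-FLAG tags. These counts describe the choice and are not tested.

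Outside the chosen 500 bp both libraries were above their autosomal means. Tags there were not used to choose the window itself, but some lie in other members. Of neighbouring members 189 pairs lay within 10 kb, with 60 adjoining pairs among them, and they were not left out of these densities. The anti-FLAG density was 28.6 tags per kb in the windows, 12.9 (12.6 to 13.1) at 250 to 500 bp from the centre, 9.33 (9.19 to 9.46) at 500 to 1000 bp and 6.56 (6.48 to 6.64) at 4 to 5 kb. The IgG density was 4.03 tags per kb in the windows, where the rule capped it, then 7.57 (7.40 to 7.75), 6.85 (6.74 to 6.97) and 5.40 (5.33 to 5.48). Anti-FLAG thus fell steeply with distance while IgG was also high beside the windows and declined slowly. Tags of both strands took part: 13841 anti-FLAG tags in the windows were from the plus and 13957 from the minus strand, and in 1888 windows each strand gave at least 25%. Merging 60 adjoining pairs left 1886 separate sites.

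**Figure D1:**
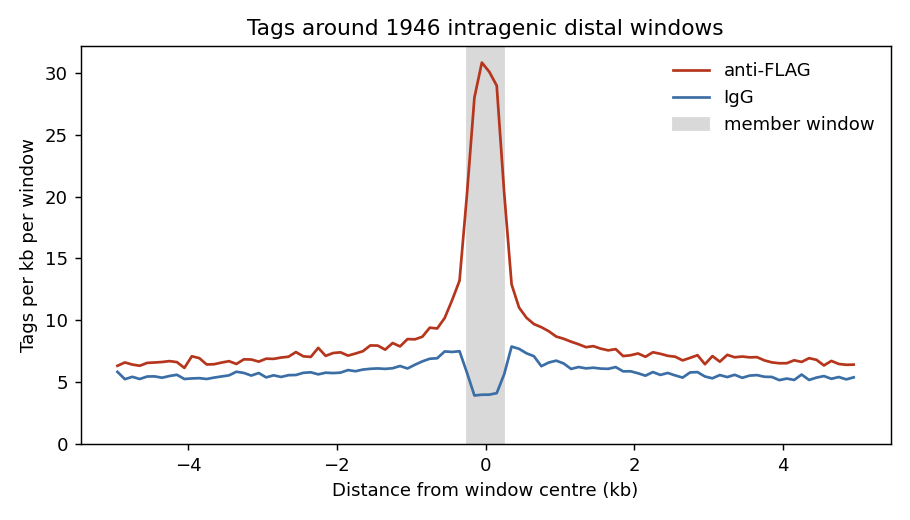
Tags per kb per window (y axis) against distance from the window centre in kb (x axis) for the 1946 windows, with anti-FLAG in red, IgG in blue and the chosen 500 bp in grey. Anti-FLAG peaks in the window at 28.6 tags per kb on average, and both libraries stay above 5 tags per kb at 4 to 5 kb.

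The windows named by rank were those with most anti-FLAG tags, leaving out lopsided strands and very high IgG density. The first held 42 anti-FLAG tags and 1 IgG tag and lies at chr7:6362501-6363000 in the predicted gene Gm16532, overlapping an annotated exon 236 bp from another transcript's start. Its neighbouring 500 bp held 0 anti-FLAG tags upstream and 26 downstream. Galnt10, which encodes an enzyme that starts mucin-type O-glycosylation, held 39 anti-FLAG and 1 IgG tag in intron 1, 74307 bp from its TSS, with 7 and 12 anti-FLAG tags in the 500 bp on either side. Tags at Galnt10 were thus concentrated in 1 window, while those at Gm16532 ran on into the next 500 bp on 1 side.

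Ppm1e, for a serine/threonine phosphatase, had 32 anti-FLAG and 2 IgG tags in intron 1, with 3 and 2 anti-FLAG tags in its neighbours. Gm973 had 31 and 1 in intron 11. Celf4, for a neuronal RNA-binding protein, had 31 and 1 in intron 2. None of these 3 had more than 12 anti-FLAG tags in an adjoining 500 bp. The 500 bp downstream of the Gm973 window, with 12 anti-FLAG and 3 IgG tags, met the tag limits itself.

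Igf1, which encodes insulin-like growth factor 1, had 31 anti-FLAG and 2 IgG tags in intron 2, and the next window upstream also held 23 anti-FLAG and 5 IgG tags. That neighbour exceeded the anti-FLAG limit and was left out by its IgG tags. The last 4 of the 10 held 28 anti-FLAG and 2 IgG tags each: intron 12 of Ttll5, for a tubulin glutamylase, intron 1 of Sdc4, for the focal adhesion proteoglycan syndecan-4, intron 40 of Myo18b, for an unconventional myosin, and intron 3 of Met, for the receptor of hepatocyte growth factor. Their distances from the host TSS were 55128, 11136, 177631 and 35451 bp. The 10 windows span 40.6 to 59.4% GC. Those of Celf4, Ttll5 and Myo18b held no AP-1, TEAD or CTCF core match, and their sequences are not shown.

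The libraries covered GC differently, and the rate at which windows met the rule moved with it. Over all intragenic distal windows of 32 to 34% GC the IgG mean was 2.60 tags per window, against 1.505 in those of 50 to 52% and 0.723 in those of 60 to 62%, while anti-FLAG had 2.02, 2.02 and 1.56. In the same strata the rule was met by 2.12, 18.6 and 42.8 windows per 10000. With the libraries exchanged it was met by 3.81, 0 and 0. The chosen windows had a median GC of 46.6% (range 29.4 to 69.6%), against 42.8% for all intragenic distal windows and 37.0% for the exchanged ones. How much of the GC profile of the windows belongs to antibody, library or locus cannot be told apart with 1 library each.

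**Figure D2:**
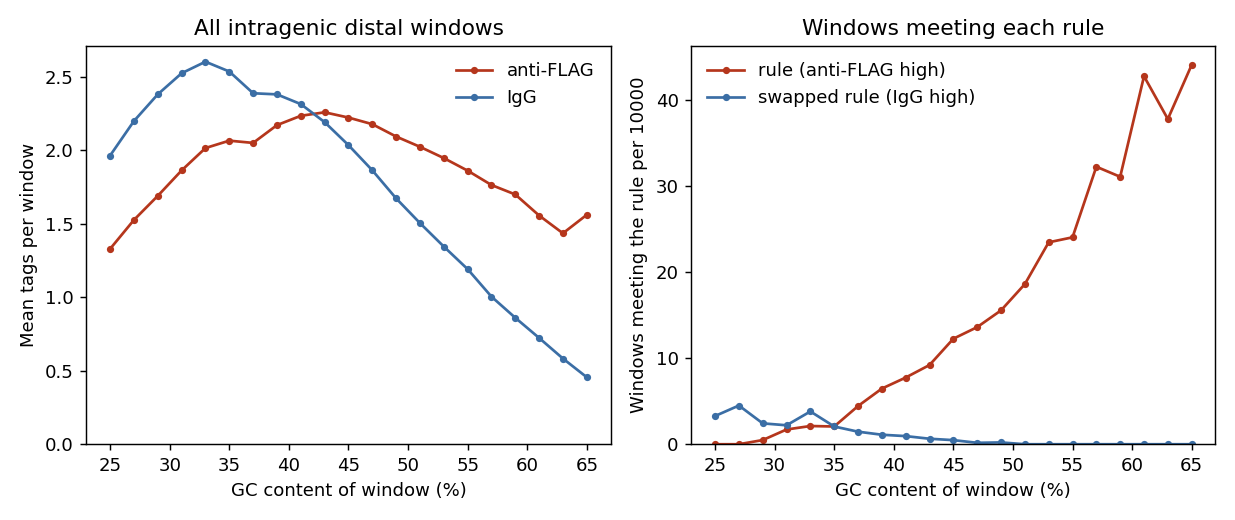
Left, mean tags per window (y axis) by GC content in percent (x axis) over all intragenic distal windows, anti-FLAG in red and IgG in blue; right, windows per 10000 that meet the rule (red) or the same rule with the libraries exchanged (blue). The red rate rises with GC to 42.8 at 60 to 62% as the IgG mean falls to 0.723.

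Local tag density was the other property that went with the rule. Over the 10 kb centred on the window, the chosen windows had 8.4 anti-FLAG and 5.7 IgG tags per kb (medians), against 4.0 and 3.9 for all intragenic distal windows. The 10 kb include the window itself, so tags that the rule used enter these densities. Where IgG density was 0 to 2 tags per kb the rule was met by 0.624 windows per 10000, at 2 to 4 by 4.08, at 4 to 6 by 10.97, at 6 to 8 by 31.9 and at 8 or more by 55.9. The exchanged rule rose too, from 0 through 0.0127, 0.371 and 2.51 to 21.0. By chromosome the rate was 29.1 per 10000 on chromosome 19, 18.2 on 8 and 14.9 on 15, and 6.77 to 14.05 on the other 16 autosomes. Both libraries were denser on chromosome 19, with means of 3.10 anti-FLAG and 2.95 IgG tags per window, and on chromosome 8, with 2.67 and 2.54. The part of chromosome copy number in these rates was not tested.

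Most windows were intronic, at a share near that of all intragenic distal windows. Their median place in the host was nearer the 5′ end than that of intragenic distal windows in general. By their centre, 1815 were intronic, 69 in untranslated regions, 34 in coding exons and 28 in other exons. Intron 1 of the longest transcript held 642, or 33.0% (30.9 to 35.1), against 23.8% of all intragenic distal windows, and intron 3 or later held 42.2% (40.0 to 44.5) against 52.9%. The rate was 19.6 per 10000 windows at 1 to 5 kb from the host TSS, 12.4 at 5 to 20 kb, 10.5 at 20 to 50 kb, 11.3 at 50 to 100 kb and 7.52 beyond. The median distance was 36424.5 bp for members and 56385 bp for all. Host length enters these distances, since the rate was 15.8 per 10000 in genes up to 10 kb and 6.05 in genes over 300 kb. As a percentage of host length the median was 45.3 for members and 50.6 for all, and within genes of up to 10 kb, 10 to 30, 30 to 100, 100 to 300 and over 300 kb it was 39.04, 44.6, 42.01, 47.4 and 46.2 against 59.4, 52.4, 50.6, 49.9 and 49.8. The share in intron 1 was 27.03, 37.8, 42.4, 29.6 and 20.8% in those classes, against 19.6, 23.5, 25.5, 24.8 and 21.6% of all, so it was not higher in the longest genes. These differences were not tested. Of these 4 places coding exons were the poorest, with 5.73 members per 10000 windows against 10.6 in introns.

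Some windows sat at starts that the rule did not consider. It used 1 start per gene, and 207 windows, 10.6% (9.30 to 12.1), lay within 1 kb of the start of another annotated transcript, against 3.82% of all intragenic distal windows. Within 250 bp of one lay 4.88% (3.97 to 5.94) against 1.04%. These 207 were nearer to promoters in base composition. Their median GC was 52.2%, 19.3% met the CpG island limits of 50% GC and an observed to expected CpG ratio of 0.6, and 32.9% held a GC box (GGGCGG). For the other 1739 windows the values were 46.2%, 0.863% and 10.3%. AP-1 went the other way, with 19.8% of the 207 and 30.4% of the 1739. A strong example, picked after its values were seen, was intron 1 of Psma6, for a proteasome subunit, with 21 anti-FLAG and 0 IgG tags 11 bp from a transcript start. A window of Bad, for a pro-apoptotic BCL-2 family protein, also picked by value, held 24 and 3 but only just met the 1-kb limit. It lies in an untranslated region, 994 bp from a transcript start and 9900 bp from the host TSS.

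AP-1 was the motif searched whose share differed most from that of other intragenic windows. TGANTCA, which reads the same on both strands, was in 570 of the 1946, or 29.3% (27.3 to 31.4), against 14.3% of all intragenic distal windows and 13.6% when these were weighted to the members' GC content. In 117 windows, 6.01% (5.00 to 7.16), there were 2 or more matches, against 1.19%. The middle base was C or G, as in the classical AP-1 site, in 73.2% of the 709 matches in members and in 54.6% of 285804 matches in all intragenic distal windows. Where a window had a single AP-1 match, it lay a median of 83 bp from the middle of the anti-FLAG tags, where all positions of the windows had a median of 127 bp.

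The share with AP-1 went up with anti-FLAG tags well before the limit of the rule. Among windows with 3 or fewer IgG tags it was 12.9% at 0 to 1 anti-FLAG tags, 15.5% at 4 to 5, 19.2% (18.5 to 20.0) at 8 to 9, 26.7% (24.1 to 29.5) at 12 to 13 and 35.2% (29.3 to 41.6) at 18 or more. With the libraries exchanged it was 12.8% at 0 to 1 IgG tags, 15.2% at 4 to 5, 15.9% (15.1 to 16.8) at 8 to 9 and 19.9% (13.7 to 27.3) at 12 to 13, in only 146 windows. Median GC went from 43.4 to 47.2% along the anti-FLAG classes, and from 44.2 to 36.9% up to 12 to 13 tags along the IgG classes. Within each of 4 GC ranges the members' AP-1 share, 27.8, 32.1, 29.8 and 23.1% from the lowest range to the highest, was above that of all windows, which was 15.0, 14.7, 13.2 and 10.3%. It was also 26.1, 28.3, 32.5 and 28.8% in the IgG density classes from 2 to 4 tags per kb up to 8 or more, where all windows had 13.98 to 16.02%.

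**Figure D3:**
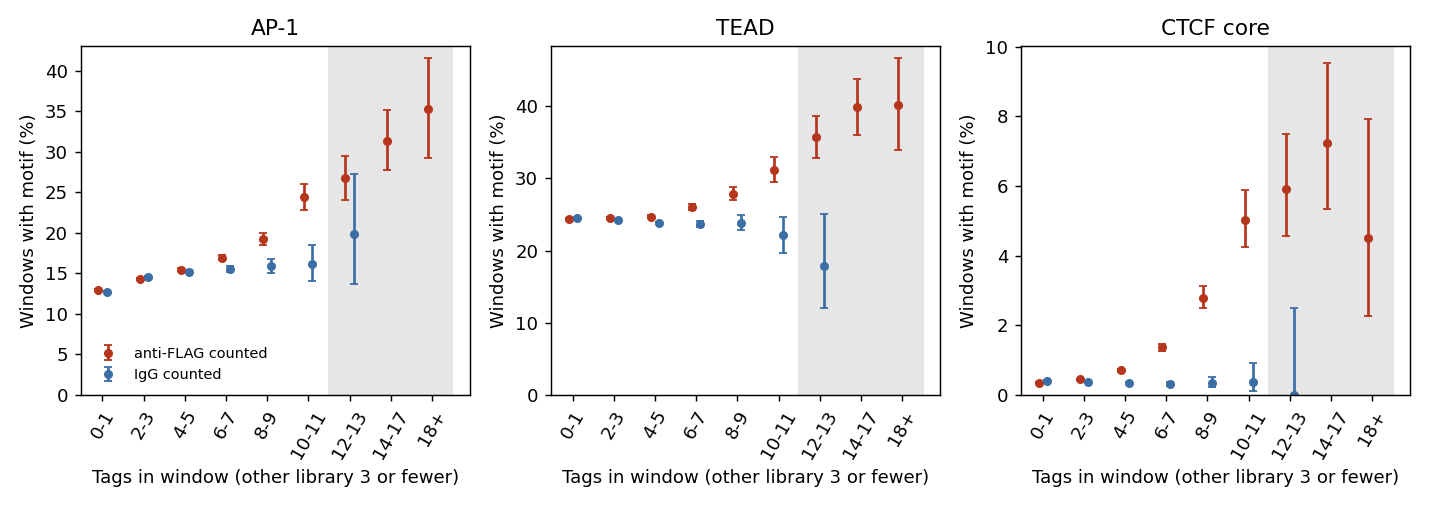
Share of intragenic distal windows with an AP-1, TEAD or CTCF core match (y axis, percent, with 95% exact intervals) by tags in the window (x axis), when the other library had 3 or fewer; red counts anti-FLAG tags, blue IgG tags, and grey marks 12 or more. AP-1 reaches 35.2% at 18 or more anti-FLAG tags, while CTCF stays near 0.4% along the IgG classes up to 10 to 11 tags.

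TEAD matches (GGAATG, both strands) were in 732 windows, 37.6% (35.5 to 39.8), against 24.5% of all and 25.4% at the members' GC content. They went from 24.4% at 0 to 1 anti-FLAG tags to 40.2% (34.0 to 46.6) at 18 or more. Unlike AP-1 they lay little nearer the tag centre than any position, at a median of 114 bp. TEAD was in 38.1% of members with AP-1 and 37.4% of those without, and 217 windows held both. At least 1 of AP-1, TEAD and the CTCF core was in 59.6% (57.4 to 61.8) of the windows against 35.6% of all, which leaves 786 windows with none of these letters.

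The other motifs differed by fewer percentage points from the share at the members' GC content. C/EBP (TTGCNNAA, both strands, as for all that follow) was in 26.7% (24.8 to 28.7) against 17.9%, the motif of the GATA family of zinc finger factors, AGATAA, in 29.3% (27.3 to 31.4) against 22.7%, and RUNX (TGTGGT) in 37.2% (35.0 to 39.3) against 34.0%. Without the weighting for GC these were in 20.5, 28.4 and 32.8% of all intragenic distal windows. The CRE (TGACGTCA) was in 14 windows and STAT (TTCCNGGAA) in 52, while the CArG box, NFI and NF-kB consensus sequences, searched by name, were in 64, 3 and 133. Over all intragenic distal windows these last 5 shares were 0.302, 1.29, 2.68, 0.0305 and 3.76%, and at the members' GC content 0.388, 1.39, 2.41, 0.0365 and 5.26%, against 0.719, 2.67, 3.29, 0.154 and 6.83% of members.

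Of the motifs common at promoters, the GC box, E2F and ETS were above the share at the members' GC content. The GC box was in 12.7% (11.2 to 14.3) against 8.66%, E2F (GCGGGA) in 8.27% (7.09 to 9.59) against 5.93%, and ETS (CCGGAA) in 7.40% (6.28 to 8.65) against 5.60%. The E-box (CACGTG) at 6.53% (5.47 to 7.72) against 6.95% did not stand above it, and the CCAAT box at 45.8% (43.6 to 48.1) against 49.4% was below. Without the weighting the shares over all were 5.26, 3.81, 4.01, 5.70 and 52.6% in that order. Among members ETS was in 19.3% of the 207 windows within 1 kb of a transcript start and 5.98% of the other 1739, near the 5.60%. The GC box was in 32.9 and 10.3% of these groups. ETS, STAT and TEAD letters hold the same 4-base core and can share bases.

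Windows from the same tag limits elsewhere differed in sequence by place. Of the 1427 within 1 kb of a gene TSS, 11.98% (10.3 to 13.8) held AP-1, 22.0% TEAD, 40.9% ETS and 53.7% a GC box. The 2087 intergenic distal windows were nearer to the intragenic ones, with AP-1 in 32.7% (30.7 to 34.7), TEAD in 36.4% (34.3 to 38.5) and ETS in 8.34%. The CTCF core was in 5.40% (4.28 to 6.70), 6.61% (5.58 to 7.76) and, for the intragenic windows, 6.17% (5.14 to 7.33), intervals that overlap. No test of these differences was made.

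The CTCF core marked a small group with its own features. It was in 120 windows, against 0.522% of all intragenic distal windows and 0.789% at the members' GC content, a ratio of 7.82. The 163 windows chosen with the libraries exchanged held 0, but their median GC was 37.0%. All windows of 28 to 42% GC held the core in only 0.234%, so 163 windows are too few for a contrast. In members the CTCF match lay a median of 31 bp from the tag centre in the 115 windows with 1 match, and within 50 bp in 67.8% of them, where 20.2% of all window positions are. Tags in these 120 ranged from 12 to 22 anti-FLAG, with a median of 13, and from 0 to 3 IgG. The strongest were in Myt1l, for a neural zinc finger factor, and Acta2, for smooth muscle actin, with 22 anti-FLAG and 2 IgG tags each, Gatsl3 with 21 and 3, and Plec, for the cytoskeletal linker plectin, with 20 and 1. Only 20 of the 120, 16.7%, were in intron 1, against 33.0% of all members and 35.96% of those with AP-1.

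CTCF windows also lay in quieter surroundings. Their median IgG density over 10 kb was 4.1 tags per kb, against 5.9 for AP-1 windows. Of the members in the IgG density class of 2 to 4 tags per kb 16.5% held a CTCF core, at 4 to 6 7.18%, at 6 to 8 1.39% and at 8 or more 0.873%, while the share over all windows went only from 0.603 to 0.376%.

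Matches away from the chosen windows give tags that the rule did not use. At 9677 CTCF cores in intragenic distal windows over 2 kb from every member, the tag density within 100 bp was 2.22 times that at 1.5 to 2 kb for anti-FLAG and 1.07 times for IgG, a ratio of 2.08 (2.02 to 2.13). At 286442 AP-1 matches the values were 1.15 and 1.09, a ratio of 1.06 (1.05 to 1.06). TEAD gave 1.04 and 1.00, and the CCAAT box, the most common motif searched, 0.981 and 1.00. The GC box gave 0.801 and 0.610, both below their surroundings, and a ratio of 1.31 (1.30 to 1.33). Ratios were also above that of AP-1 for NFI at 1.21 (1.08 to 1.35), E2F at 1.20 (1.18 to 1.21), NF-kB at 1.11 (1.10 to 1.12) and ETS at 1.10 (1.09 to 1.12). They were below 1 for GATA at 0.945 (0.941 to 0.948) and C/EBP at 0.974 (0.969 to 0.978), both raised in members. The CCAAT box at 0.976 (0.974 to 0.979) and the CArG box at 0.977 (0.964 to 0.991) were below 1 too. The GC dependence of the libraries was not corrected in these ratios, and its part in them was not tested. IgG was not flat at the CTCF cores. At -25 and 25 bp it was 1.013 and 0.960 times its level at 1.5 to 2 kb, against 2.708 and 2.669 for anti-FLAG. At -125 and 125 bp IgG stood at 1.496 and 1.551, close to anti-FLAG at 1.574 and 1.587. At -325 and 325 bp IgG, at 1.307 and 1.294, was above anti-FLAG, at 1.222 and 1.225. The anti-FLAG excess within 100 bp of CTCF cores was thus also present outside the chosen windows. At AP-1 matches the 2 libraries were close on average. Matches within 2 kb of members, which were chosen for anti-FLAG excess, are left out of these averages. AP-1 letters are in 14.3% of all intragenic distal windows and the CTCF core in 0.522%, so the 2 motifs average over unlike sets. Single AP-1 matches cannot be judged from them.

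**Figure D4:**
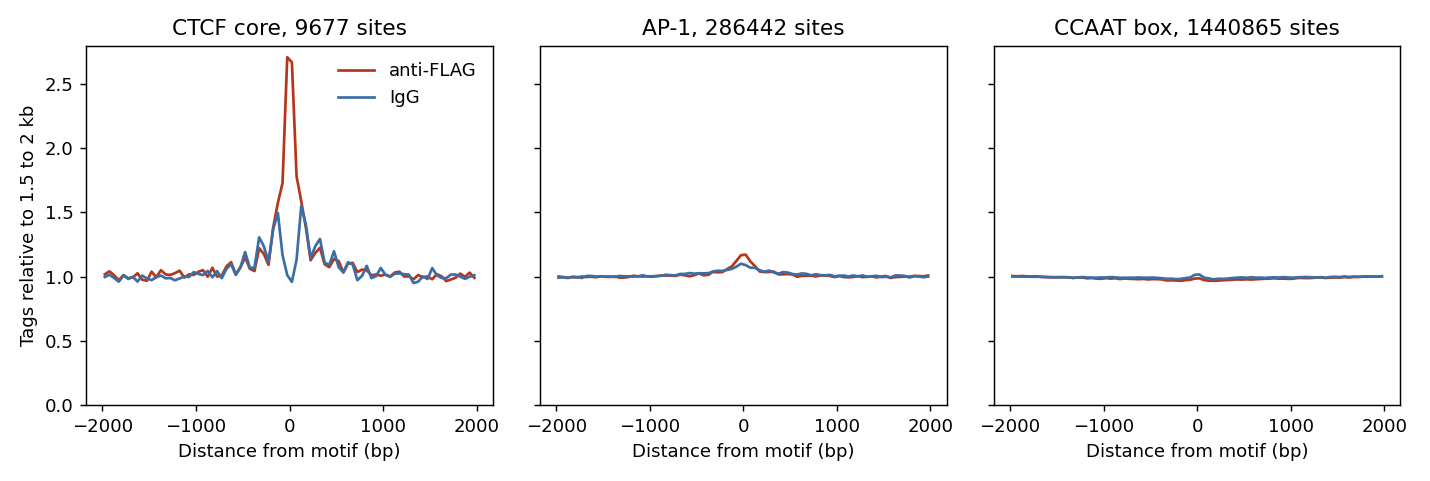
Tags relative to their level at 1.5 to 2 kb (y axis) against distance in bp from motif matches over 2 kb from every member (x axis), anti-FLAG in red and IgG in blue. Anti-FLAG rises at the 9677 CTCF cores, to 2.22 on average within 100 bp, and hardly at the 286442 AP-1 matches or the CCAAT boxes. IgG at the CTCF cores is highest to both sides, at 1.496 and 1.551 at -125 and 125 bp.

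The strands of tags around these motifs were also compared. Fragments centred on a site put plus-strand 5′ ends to its left and minus-strand ones to its right, here called inward. Since the 72-bp move favours that arrangement, it was measured in windows chosen with tags not moved. Within 200 bp of single AP-1 matches 57.3% (55.9 to 58.7) of anti-FLAG tags were inward and 44.9% (41.4 to 48.6) of IgG tags. At CTCF cores 66.4% (63.8 to 69.0) and 41.2% (34.2 to 48.5) were, and at CCAAT boxes 52.5% (51.2 to 53.8) and 50.05% (47.0 to 53.1). At CTCF cores away from the members anti-FLAG was inward in 61.2% (60.6 to 61.7) and IgG in 45.0% (44.3 to 45.7). At AP-1 matches away from the members the values were 51.8% (51.6 to 51.9) and 50.8% (50.6 to 50.9). The arrangement seen in the chosen windows was thus nearly absent from the average over these matches. That average leaves out matches near members, so it cannot tell whether single matches have the arrangement.

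The 1946 windows lay in 1399 of 21418 autosomal protein-coding genes, and 1072 of these hosts held 1 window, 204 held 2 and 76 held 3. A window in several genes, as 52 were, was given to the gene with the nearest TSS. The host with most windows, Gm20388 with 15, is a gene model of 4434882 bp on chromosome 8 that spans other genes, and its rate was 0.313 per 100 windows. The predicted genes 1700112E06Rik and 2010111I01Rik held 8 and 7.

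Kank1, Ano6, Syn3 and Loxl2 were also among the hosts with most windows. Kank1, for a regulator of actin at focal adhesions, held 8 windows with 13 to 23 anti-FLAG and 0 to 3 IgG tags, 1 of them in a coding exon. Ano6, for a phospholipid scramblase of the plasma membrane, held 7 with 13 to 19 and 1 to 3. Syn3, for a synapsin, held 6 with 12 to 26 and 1 to 3. Syn3 runs from 85517870 to 85961641 on chromosome 10 and has within it, on the other strand, Timp3, an inhibitor of matrix proteases that holds 2 further windows of 14 anti-FLAG tags. No Syn3 window lies inside Timp3.

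Loxl2, for a lysyl oxidase that cross-links collagen, was the densest of the hosts named by number, with 7 members in 171 intragenic distal windows, 4.09 per 100. Its members held 26, 14, 20, 12, 12, 15 and 13 anti-FLAG tags in order from the TSS, at 1773, 5773, 30273, 52273, 63773, 77273 and 79273 bp, against 1, 3, 3, 1, 0, 2 and 2 IgG tags. The gene as a whole was dense in both libraries, at a mean of 6.18 anti-FLAG and 4.56 IgG tags per window. Its promoter, 500 bp either side of the TSS, held 18 anti-FLAG and 7 IgG tags (exact binomial test, Benjamini-Hochberg adjusted p = 0.0462). That test was not corrected for GC, and most promoter calls did not hold under such a correction, as given below.

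**Figure D5:**
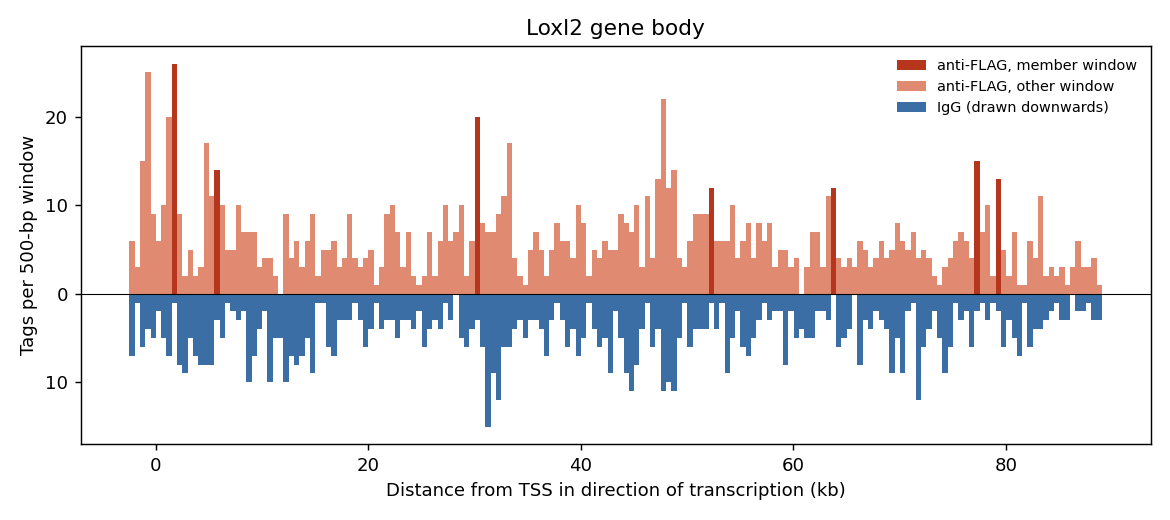
Tags per 500-bp window (y axis, IgG drawn downwards) along Loxl2 by distance from its TSS in kb (x axis), with the 7 member windows in dark red, other anti-FLAG windows in light red and IgG in blue. The members stand out by few IgG tags as well as many anti-FLAG tags, and windows of over 10 anti-FLAG tags with more IgG lie between them.

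Gene lists were compared by members per 10000 of their intragenic distal windows, which was 10.6 over all genes. Since density and GC go with the rule, the rate that all windows of the same IgG density and GC had is given beside each. Extracellular matrix genes of fibroblasts had the highest rate, 66.9 against 31.2, from 27 windows in 13 of 30 genes. Loxl2 alone held 7 of the 27. The 13 hosts are 43.3% of the list, against 12.1% expected from gene length and 6.53% of all genes. YAP, TAZ and TEAD genes had 45.2 against 25.04 from 10 windows, and TGF-beta and SMAD genes 36.2 against 19.2 from 15. Actin and adhesion genes had 31.8 against 26.7, with 23 windows in 15 of 29 genes, or 51.7% against 15.7% expected from gene length. These expected shares of hosts take length into account but not density or GC. Windows meeting the exchanged rule were also present in the matrix list, 4 in number, and in the actin list, 2.

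In the matrix list the windows were in collagen and basement membrane genes, in elastic fibre genes and in enzymes that process them. Col4a2 held 4, the highest with 18 anti-FLAG and 2 IgG tags, Col5a2 and Lamc1 held 2 each, and Col5a1, Col6a2 and Lama4 held 1 each. Fbln5, for an elastic fibre protein, held 2, the highest with 20 and 3, while Fbln2 and Fbn1 held 1 each. Loxl2 held the 7 described above. Its relative Loxl1 held 2, with 19 and 16 anti-FLAG tags and 1 IgG tag in each. Timp3 held 2 and the gelatinase gene Mmp2 1. Of the 27 windows 5, or 18.5%, held AP-1 and 11, or 40.7%, TEAD, against 29.3 and 37.6% of all members.

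Among actin and adhesion genes Palld, for the actin organiser palladin, held 4 windows, the highest with 26 anti-FLAG and 3 IgG tags in intron 10. Lpp held 3. Vcl, for vinculin, had 1 of 20 and 3 in intron 1, with an AP-1 match. Actn4, for alpha-actinin 4, and Arpc2, a subunit of the Arp2/3 complex, each held 2, the highest with 19 anti-FLAG tags and an AP-1 match in both genes. Of the 23 windows 9, or 39.1%, held AP-1 and 11, or 47.8%, TEAD, against 29.3 and 37.6% of all members. The differences of these small groups were not tested.

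Windows in signalling genes were spread over several roles. In the TGF-beta list Ltbp2, for a protein that binds latent TGF-beta, held 5, the highest with 18 and 1, the co-receptor gene Tgfbr3 2, the inhibitory Smad7 2, of 14 and 13 anti-FLAG tags, and Tgfb2, a ligand, 1 of 12 and 2. Among YAP and TEAD genes the TEAD cofactor Vgll4 held 3, the highest with 20 and 2, while Wwtr1, which encodes TAZ, Amotl2 and Tead1 held 2 each and the atypical cadherin gene Fat1 1. Wnt and Notch genes had a rate of 27.1 against 22.5, with 4 windows in the effector Tcf7l2, 2 each in the receptors Ryk and Lrp6, and 1 in Ror2. Growth factor and MAPK genes were at 15.6 against 14.8, with 3 windows in Met and 3 in the kinase gene Map3k5.

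The lists closest to cyclin D1 itself held few windows in number, from few candidate windows. All windows of the same density and GC would give 2.03 for cell cycle genes and 1.32 for the AP-1 and immediate early list. With 3 and 2 windows found, whether their rates differ from those of other genes cannot be told. Cell cycle genes had 3 windows in 1735, 17.3 per 10000 against 11.7. They were intron 1 of Ccnd3, for cyclin D3, with 15 anti-FLAG and 2 IgG tags, intron 2 of Cdk1, the mitotic kinase gene, with 13 and 0, and intron 2 of Mcm2, for a subunit of the replicative helicase, with 12 and 1. The AP-1 and immediate early list, of short genes, had 2 windows in 979, 20.4 per 10000 against 13.5. They were 1 window in Jund, with 14 and 1 at 1113 bp from the TSS, and 1 in the AP-1 related Bach2, with 13 and 2.

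Neuronal and synaptic genes, mostly very long genes best known from brain, had 5 windows in 69979, 0.715 per 10000 against 2.75 at the same density and GC. Each was 1 window of 12 or 13 anti-FLAG tags, in Nlgn1, Ctnna3, Macrod2, Grin2b and Opcml. Both libraries were thin across this list, at means of 1.45 anti-FLAG and 1.72 IgG tags per window, against 3.54 and 2.90 in the matrix list. The part of local coverage that the density classes do not capture in these rates was not tested.

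Host promoters gave a measure apart from the rule. In the 500 bp either side of the TSS, 2992 genes had at least 20 tags in both libraries together, and 1876 of them, 62.7%, had more anti-FLAG tags at an adjusted p under 0.05 in the exact binomial test. Among hosts of the windows 141 of 235 did, a share with an interval of 53.4 to 66.3%, and among other genes 1735 of 2757, 62.9% (61.1 to 64.7). The median log2 ratio, with 1 tag added to each count, was 1.44 in both groups. Hosts were thus near the background, in every length class up to 300 kb as well: 66.7, 60.6, 59.5 and 58.1% of tested hosts against 63.9, 62.7, 63.2 and 60.9% of other genes. Above 300 kb 8 of 13 hosts and 6 of 17 other genes were called. Of the list hosts named, Cdk1 had 22 anti-FLAG and 3 IgG tags at its promoter (exact test, adjusted p = 0.000769) and Ctnna3 18 and 6 (exact test, adjusted p = 0.0278). After correction for the GC dependence of the 2 libraries only 16 of the 235 hosts, 6.81%, and 244 of all 2992, 8.16%, passed, so most promoter calls did not hold under that correction. The calls named for Cdk1, Ctnna3 and Loxl2 come from the uncorrected test. So does that of the list host Mmp2, with 17 anti-FLAG and 5 IgG tags at its promoter. Of the 1399 hosts, only the 235 had 20 or more promoter tags and could be tested.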

How the data were processed

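Chromatin immunoprecipitation sequencing gave 2 deposited files, 1 per antibody, of tag positions with strand. As deposited, every tag was 36 bp long and 0 were duplicates of another by start and strand. The deposited score was the constant 512 and was not used. Libraries were made with an Illumina kit from chromatin sheared by sonication, per the labels' protocols. The aligner, filters and build, not given in the sources used here, are unknown. Tags lay within the chromosomes of NCBIM37, except for 4 anti-FLAG and 2 IgG tags past an end, so this build, its sequence and GENCODE M1 (34653 autosomal genes, 21418 protein-coding) were used. Mappability was not measured and repeats were not masked.

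The regions and gene lists were chosen with earlier results of these data known, so no list is independent evidence. Tags were counted in 500-bp windows of the 19 autosomes. Motif shares were weighted to the members' GC by strata of 2 GC points, and list rates by IgG density class and GC. The intervals are exact binomial or Poisson, at 95%. Promoters (500 bp either side of the gene TSS, at least 20 tags) were compared between libraries by an exact conditional binomial test (2-sided, ratio of library totals), adjusted by Benjamini-Hochberg at 0.05. Members were not tested against other windows. Counting, motif search and promoter test were tested on simulated data. Named windows were the 10 with most anti-FLAG tags among those with at least 25% of tags on each strand and IgG density over 10 kb at most 3 times the autosomal mean. Named hosts were the 8 with most windows and, per list, up to 4 with the highest window. A gene that this rule names is not reported here. Other features are said where named to have been picked by value. Some further list hosts are named as well, but not every list host is. Sequences followed the same order of tags, off exons and chromosome 18. Python 3.11.15, NumPy 2.4.6, SciPy 1.17.1, pandas 2.3.3 and Matplotlib 3.10.9 were used.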

Additional observations from a re-analysis of the deposited data

How the results depend on the processing

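Each antibody had 1 library, so no replicate could be left out, and depth limits every window: counts of 12 or 13 decide most of the membership. No paired analysis was possible because each group holds 1 sample. With 15 or more anti-FLAG tags 618 windows were left, with AP-1 in 33.0% and a median GC of 47.2%. With 1 or fewer IgG tags 541 were left, of which 14.6% lay within 1 kb of a transcript start, with a median GC of 49.2%. With anti-FLAG tags at least 6 times the mean of the GC stratum, 1231 were left, 13.6% near a transcript start, with a median GC of 49.2%. The grid shifted by 250 bp put 9.17% near a transcript start. Windows over 2.5 kb from every gene TSS had 8.503% there and 29.8% in the first intron. Without the windows within 1 kb of a transcript start the median GC was 46.2%, and the share near such a start could not be formed. Host promoters called were 324 of 985 (32.9%, against 29.5% of all tested) with 1 kb either side of the TSS, 294 of 856 (34.3% against 32.9%) with at least 10 tags, and 16 of 235 with the GC correction. The causes of these moves were not tested beyond the construction of each alternative. The other 37 values moved by less than their counting interval, or, for counts, by less than 1.5 times, including tags not moved or moved 150 bp, strand balance and, chosen after seeing the data, chromosomes 8, 15 and 19 left out. The AP-1 share was 29.3 to 33.0% in the 11 settings run.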
